A study of Caenorhabditis elegans with 6 samples.

Results

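The 10 genes described here are the troponin and tropomyosin genes of *Caenorhabditis elegans* that were given by name: *tni-1*, *unc-27*, *tni-3* and *tni-4* for troponin I, *mup-2*, *tnt-2* and *tnt-3* for troponin T, *pat-10* and *tnc-2* for troponin C, and *lev-11* for tropomyosin. The rule that names them uses no measured value, although it was written with earlier results of these data known. They are 10 of the 17682 genes in the deposited files, and all 10 were among the 7333 genes with enough reads to be tested, that is at least 10 reads in all 3 libraries of either treatment. *tnt-4*, a troponin T gene of the pharynx, was not among the names given and is described beside them.

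Troponin and tropomyosin make the thin filament of striated muscle answer to calcium. Tropomyosin lies along the actin filament and, with troponin I, holds myosin off it at rest. Troponin T ties the complex to tropomyosin, and when troponin C binds calcium the inhibition by troponin I is lifted and the muscle can contract. In *C. elegans* the body wall muscle and the pharynx use different genes for several of these subunits, so that *unc-27*, *mup-2* and *pat-10* serve the body wall muscle and *tni-4* and *tnc-2* the pharynx.

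All libraries came from whole hermaphrodites of the sterile strain TJ1060, which carries fem-15(b26);spe-9(hc88), and both treatments share these alleles. The worms were raised at 25°C to day 1 of adulthood, then fed for 3 days at 20°C with bacteria carrying either the empty vector (control RNAi) or a clone that makes double-stranded RNA against *unc-62* (*unc-62* RNAi), and were harvested on day 4 of adulthood. *unc-62* encodes a homeodomain protein of the Homothorax and Meis family, and the comparison asks which transcripts depend on it in adults. There were 3 libraries per treatment, from independent batches of about 10000 worms, each batch divided between the treatments. The control RNAi libraries ran in lane 4 and those of *unc-62* RNAi in lane 6, so that lane and treatment cannot be told apart.

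The libraries held between 15188765 and 22868980 uniquely mapped reads, and levels are given as RPM, the reads on a transcript scaled by the authors to a common number of uniquely mapped reads. Reads come from the 3′ end of each transcript and RPM is not divided by length, so RPM is compared here between libraries and not between genes. The level of *unc-62* itself did not separate the treatments, with means of 1.60 ± 0.338 RPM in control and 1.35 ± 0.356 RPM with *unc-62* RNAi (SD, n = 3 each; log2 fold change -0.28, Benjamini-Hochberg adjusted p = 0.739 by limma). That of *vit-2*, a yolk protein gene, did, at 6820 ± 1843 against 1224 ± 37.2 RPM (SD, n = 3 each; adjusted p = 0.0459, limma). RNA was taken from whole worms, in which fewer muscle cells and less RNA per muscle cell cannot be told apart.

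With *unc-62* RNAi, 1 of the 10 genes was called lower at an adjusted p under 0.1 by limma, the troponin T gene *tnt-3*, which fell 3.99-fold in mean RPM. None was called higher. Over all tested genes limma called 1.31%, 0.818% lower and 0.491% higher. An unadjusted p under 0.05 was reached by 2 of the 10, *tnt-3* and the troponin I gene *tni-3*, both lower, where 8.73% of all tested genes were lower and 4.69% higher at that level. On the recovered reads edgeR and DESeq2 each called 1 of the 10, again *tnt-3*. edgeR called 1.38% of all tested genes (0.859% lower, 0.518% higher) and DESeq2 4.01% (2.62% lower, 1.39% higher). Without replicate 3 limma called 3 of the 10 lower, *tnt-3*, *tni-3* and *unc-27*, where 9.35% of all tested genes were called lower. With all replicates, the 95% interval of the fold change included 0 for the other 8 genes.

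The median log2 fold change of the 10 genes was -0.20, between the quartiles of all tested genes (-0.23 and 0.30, median 0.03). Of the 10, 7 had a fold change below 0 and 3 above it. The genes that were lower in all 3 replicates numbered 5 (*tni-1*, *unc-27*, *tni-3*, *mup-2* and *tnt-3*), against 20.4% of all tested genes, and none was higher in all 3, against 15.8%. RPM of the treatments did not overlap for 2 genes, *tnt-3* and *tni-3*, both lower with *unc-62* RNAi, against 6.93% of all tested genes that were lower and 6.44% that were higher without overlap. With 3 libraries against 3 an exact permutation test of a single gene that ignores the replicate numbers cannot go below p = 0.1. Permuted within replicate numbers, its floor is higher still.

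**Figure D1:**
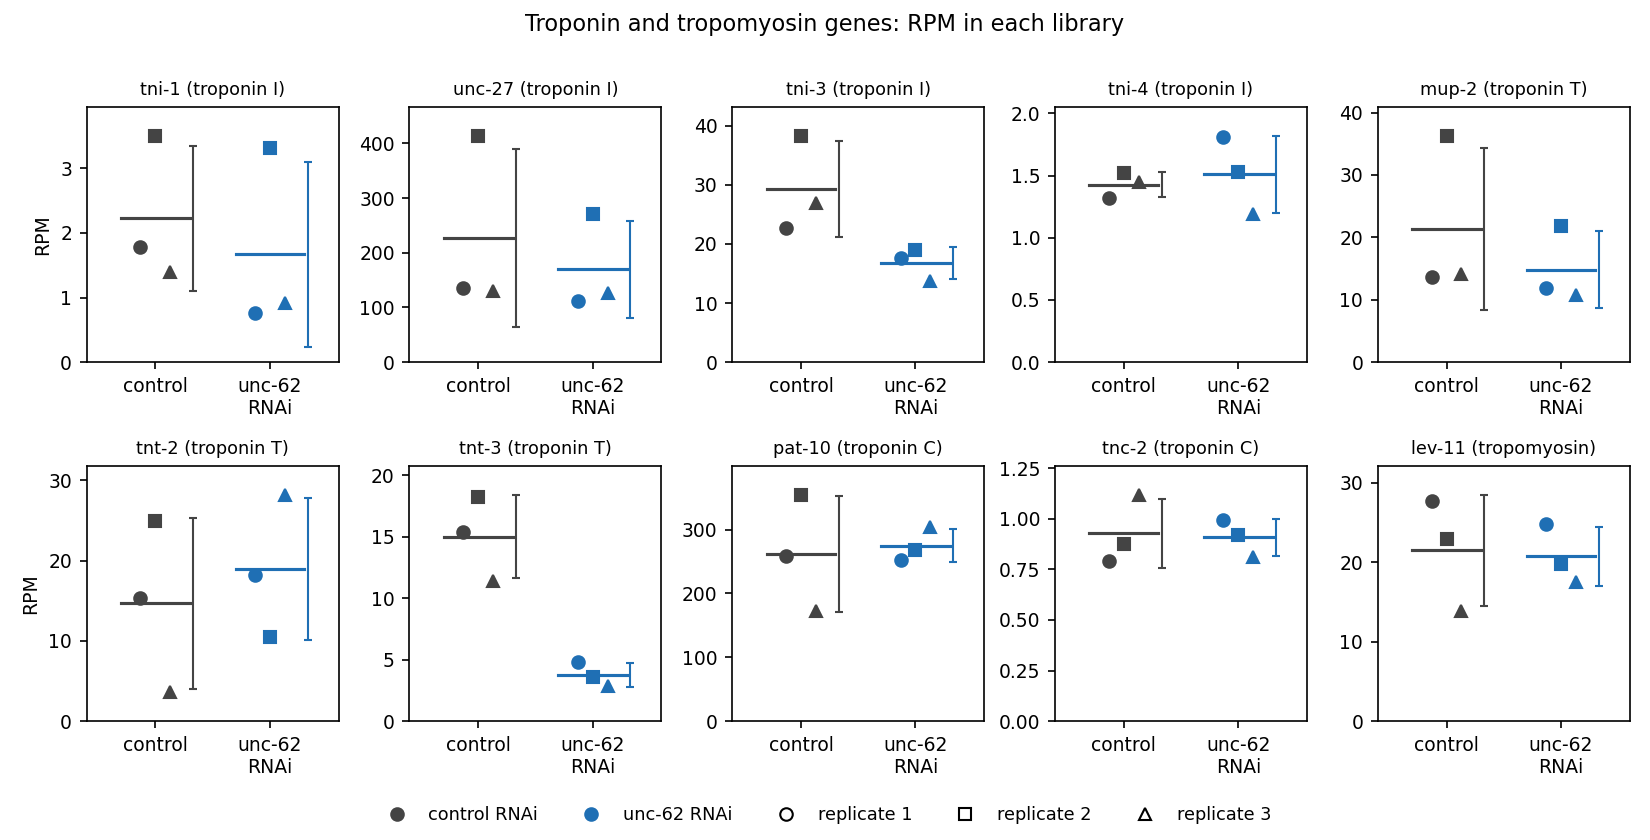
RPM of each of the 10 genes in the 6 libraries. Symbols are libraries by replicate number, horizontal lines the mean of 3 libraries and error bars the SD; each axis starts at 0 and has its own range. The 3 *unc-62* RNAi libraries of *tnt-3* (2.86 to 4.79 RPM) lie below its 3 control libraries (11.4 to 18.2 RPM), while for most other genes the symbols of both treatments interleave.

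Troponin I is the inhibitory subunit. *tni-3* (T20B3.2), on chromosome V, encodes a body wall muscle form and had 22.6, 38.4 and 26.9 RPM in control replicates 1, 2 and 3. With *unc-62* RNAi it had 17.6, 18.9 and 13.8 RPM in replicates 1, 2 and 3. The highest RNAi library was below the lowest control library, and the mean went from 29.3 ± 8.12 to 16.8 ± 2.67 RPM (SD, n = 3 each). Its log2 fold change was -0.81 (SE 0.235, 95% interval -1.42 to -0.21), and limma's p missed the threshold after adjustment over all tested genes (adjusted p = 0.238, Benjamini-Hochberg). Without replicate 3 the adjusted p was 0.0217 by limma, the fold change being -0.72, where 9.35% of all tested genes were called lower. The fold change was -1.01 without replicate 1 and -0.67 without replicate 2 (adjusted p = 0.687 and 0.677, limma), settings that called 0 of all tested genes.

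*unc-27* (ZK721.2), on the X chromosome, encodes the body wall troponin I whose loss makes worms uncoordinated. Control replicates 1, 2 and 3 had 134.9, 414.1 and 129.7 RPM, while *unc-62* RNAi replicates 1, 2 and 3 had 111.7, 271.2 and 125.4 RPM. Replicate 2 stood far above the others in both treatments and the treatments overlapped. Each replicate was lower with *unc-62* RNAi, by -0.30, -0.70 and -0.03 on the log2 scale, and the fitted change of -0.34 (SE 0.208, 95% interval -0.88 to 0.19) had an adjusted p of 0.602 by limma with Benjamini-Hochberg adjustment. Without replicate 3 the fold change was -0.47 and the adjusted p 0.0637 by limma, below the threshold, where 9.35% of all tested genes were called lower. It was -0.35 without replicate 1 and -0.17 without replicate 2 (adjusted p = 0.914 and 0.942, limma), settings that called 0 of all tested genes.

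*tni-1* (F42E11.4), also on the X chromosome and a body wall muscle form, was measured with few reads, 27, 60 and 30 in control and 13, 76 and 17 with *unc-62* RNAi. These are 1.78, 3.51 and 1.40 RPM against 0.759, 3.32 and 0.919 RPM. As for *unc-27*, replicate 2 was the highest of both treatments and the ranges overlapped. The log2 fold change was -0.64, with an interval from -1.36 to 0.08 (adjusted p = 0.433, limma). *tni-4* (W03F8.1), the pharyngeal troponin I on chromosome IV, had 1.32, 1.52 and 1.44 RPM in control and 1.81, 1.53 and 1.19 RPM with *unc-62* RNAi, from 20 to 35 reads per library. These values overlapped, and the log2 fold change of 0.03 had an interval from -0.60 to 0.66.

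Among reads on the 4 troponin I genes, *unc-27* took 81.3% to 90.5% in control and 84.7% to 91.9% with *unc-62* RNAi. The share of *tni-3* was 14.1%, 8.38% and 16.9% in the control replicates and 13.3%, 6.42% and 9.76% in the RNAi replicates, lower within each replicate number but with overlapping ranges. *tni-1* and *tni-4* each took at most 1.37% in every library. The shares of all 4 genes overlapped between the treatments, and replicate 2 held the largest share of *unc-27* in each.

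Troponin T anchors the complex on tropomyosin. *tnt-3* (C14F5.3), on the X chromosome, had 15.4, 18.2 and 11.4 RPM in control replicates 1, 2 and 3 (234, 311 and 245 reads). With *unc-62* RNAi it had 4.79, 3.63 and 2.86 RPM (82, 83 and 53 reads). The lowest control library was above 2 times the highest RNAi library, and the mean of 3.76 ± 0.969 RPM with *unc-62* RNAi (SD, n = 3) was 3.99-fold below that of control, whose SD was 3.40 RPM. The log2 fold change was -2.02 (SE 0.231, 95% interval -2.61 to -1.42, adjusted p = 0.0681, limma with Benjamini-Hochberg adjustment), and the replicates gave -1.70, -2.39 and -1.96. edgeR gave an adjusted p of 0.0698.

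The call of *tnt-3* lay close to the threshold in limma. A pseudocount of 1 RPM instead of 0.05 gave a fold change of -1.78 and an adjusted p of 0.101. Leaving out replicate 1 or replicate 2 also ended the call, with adjusted p of 0.295 and 0.355 and fold changes of -2.17 and -1.83. In both settings limma called 0 of all tested genes, so that loss is not particular to *tnt-3*. Over all alternatives the fold change ran from -2.17 to -1.78 and the adjusted p from 4.1e-07 to 0.355. The files list 5 transcripts of *tnt-3*, which share reads. All 5 were called lower in a fit over 11046 listed transcripts, of which 0.987% were called lower and 0.453% higher, with log2 fold changes from -2.11 to -2.02 (adjusted p from 0.0465 to 0.0466, limma).

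*mup-2* (T22E5.5), on the X chromosome, encodes the troponin T needed for embryonic muscle to hold its place and contract. It had 13.6, 36.3 and 14.1 RPM in control and 11.9, 21.9 and 10.7 RPM with *unc-62* RNAi. Replicate 2 was again the highest of both treatments, by more than 1.5 times over the next, and the treatments overlapped. The log2 fold change was -0.47 (SE 0.223, 95% interval -1.05 to 0.10, adjusted p = 0.474, limma), with -0.23, -0.82 and -0.37 in the replicates.

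*tnt-2* (F53A9.10), the remaining troponin T gene and also on the X chromosome, had the widest spread of the 10 between replicates. Its RPM was 15.4, 25.0 and 3.63 in control and 18.2, 10.5 and 28.2 with *unc-62* RNAi, from 234, 427 and 78 reads against 311, 241 and 522. Control replicate 3 was the lowest library and *unc-62* RNAi replicate 3 the highest, so the replicates went in different directions, with log2 fold changes of 0.21, -1.33 and 2.96. The fitted value of 0.61 had an SE of 0.819 and an interval from -1.50 to 2.73 (adjusted p = 0.805, limma). Without replicate 3 it was -0.53 (adjusted p = 0.198). This shape was common among the tested genes, of which 11.6% were lowest in control replicate 3 and highest in *unc-62* RNAi replicate 3, against 2.32% with the opposite order.

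The makeup of the reads on these 3 troponin T genes differed between the treatments in the share of *tnt-3*. It was 34.7%, 22.9% and 39.2% in the control replicates and 13.8%, 10.1% and 6.86% in the RNAi replicates, without overlap. The share of *tnt-2* was 34.7%, 31.4% and 12.5% against 52.2%, 29.2% and 67.5%, with overlap. Set against *mup-2*, *tnt-3* had 1.13, 0.501 and 0.811 reads per read of *mup-2* in control and 0.404, 0.166 and 0.268 with *unc-62* RNAi. These ratios did not overlap either, so the lower *tnt-3* was also seen relative to another troponin T gene of the same libraries. A share falls when its neighbours rise, and these shares were not tested.

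*tnt-4* (T08B1.2), the pharyngeal troponin T on chromosome V, had 5.99, 8.48 and 3.77 RPM in control and 1.58, 2.49 and 2.16 RPM with *unc-62* RNAi. The treatments did not overlap. Its log2 fold change was -1.51 (SE 0.301) with an adjusted p of 0.141 by limma with Benjamini-Hochberg adjustment, and DESeq2 called it lower. Without replicate 3 limma called it lower too, at the setting where it called 9.35% of all tested genes lower. Of the 4 troponin T genes in the files, *tnt-3* and *tnt-4*, the latter outside the names given, were the 2 whose treatments did not overlap. Of all tested genes 6.93% were lower and 6.44% higher without overlap.

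**Figure D2:**
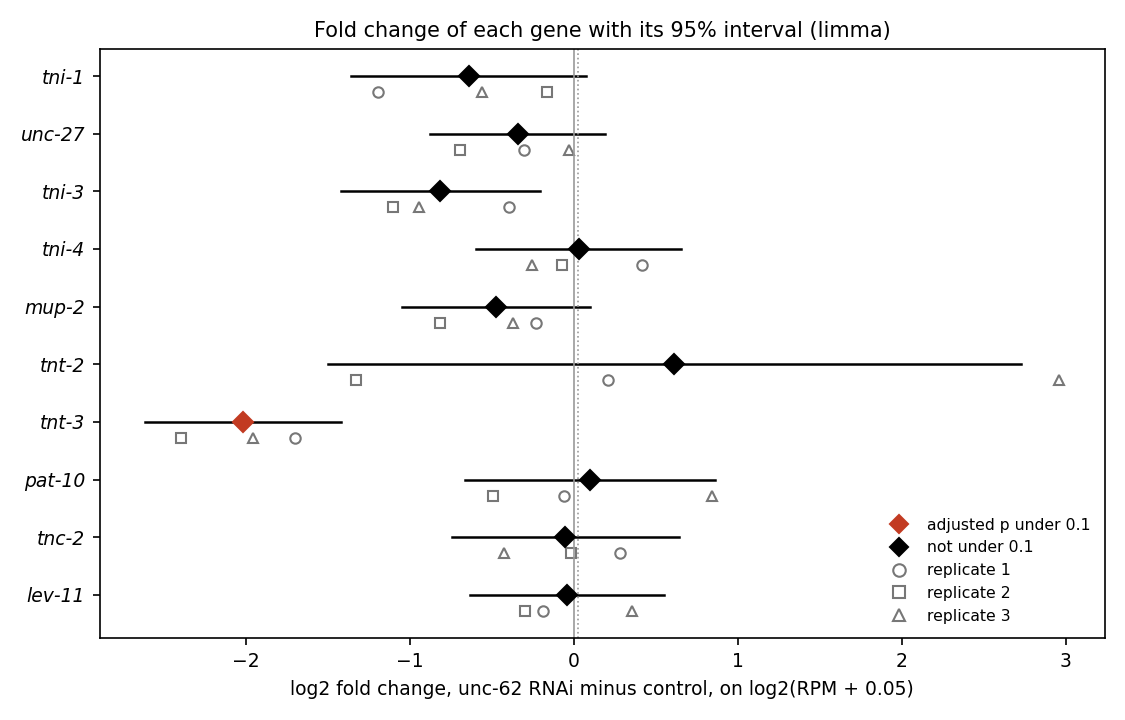
Log2 fold change of each gene, *unc-62* RNAi minus control, on log2(RPM + 0.05). Diamonds are the limma estimates and bars their 95% intervals, open symbols below them the fold change within each replicate number, the solid line is 0 and the dotted line the median of all tested genes (0.03). Only the intervals of *tni-3* (-1.42 to -0.21) and *tnt-3* (-2.61 to -1.42) do not reach 0, and the replicates of *tnt-2* spread from -1.33 to 2.96.

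Troponin C is the calcium sensor. *pat-10* (F54C1.7), on chromosome I, encodes the body wall form, without which embryos arrest paralysed. It had 258.5, 354.6 and 172.0 RPM in control and 253.0, 267.9 and 303.8 RPM with *unc-62* RNAi. All 3 RNAi libraries lay between the lowest and the highest control library. The log2 fold change was 0.10 (SE 0.296, 95% interval -0.67 to 0.86, adjusted p = 0.927, limma), which leaves room for a change in either direction. Without replicate 3 the sign turned, to -0.25. The files list 8 transcripts of *pat-10* that share nearly all reads, each with a fold change of 0.09.

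*tnc-2* (ZK673.7), the pharyngeal troponin C on chromosome II, was measured with 12, 15 and 24 reads in control and 17, 21 and 15 with *unc-62* RNAi. These are 0.790, 0.877 and 1.12 RPM against 0.993, 0.918 and 0.811 RPM. The treatments overlapped and the log2 fold change of -0.05 had an interval from -0.75 to 0.64, which leaves room for a change in either direction. *pat-10* took 99.4% to 99.8% of the reads on the troponin C genes in control and 99.6% to 99.7% with *unc-62* RNAi.

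Tropomyosin is encoded by a single gene, *lev-11* (Y105E8B.1) on chromosome I, named for the levamisole resistance of its mutants, from which muscle and other tissues draw different isoforms. The transcript with the most reads had 27.7, 22.9 and 13.9 RPM in control and 24.8, 19.8 and 17.5 RPM with *unc-62* RNAi. Replicate 1 was the highest and replicate 3 the lowest of both treatments, and the ranges overlapped. The log2 fold change was -0.04 (SE 0.230, 95% interval -0.64 to 0.55, adjusted p = 0.963, limma), with -0.19, -0.30 and 0.35 in the replicates. Its sign turned when replicate 1 or replicate 2 was left out, to 0.04 and 0.08.

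The files list 11 *lev-11* transcripts, which fall into a set of 5 and a set of 6 by their reads. Transcripts Y105E8B.1a, Y105E8B.1c, Y105E8B.1e.1, Y105E8B.1e.2 and Y105E8B.1f had between 264 and 453 reads per library. The other 6, among them Y105E8B.1b.1 and Y105E8B.1d, had between 56 and 152. Within a set the values were close to each other, since the transcripts share reads. Reads may also be shared between the sets, which were formed from the read levels. Neither the transcripts nor the sets are thus taken as separate measurements.

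The set of 5 lay between 12.3 and 27.7 RPM in control and between 14.97 and 25.3 RPM with *unc-62* RNAi, with log2 fold changes from -0.05 to -0.02. The set of 6 lay between 2.61 and 7.89 RPM in control and between 5.47 and 7.51 RPM with *unc-62* RNAi, with fold changes from 0.21 to 0.38. None of the 11 was called by limma over all listed transcripts (adjusted p from 0.773 to 0.991) and 0 had an unadjusted p under 0.05. In the set of 6, control replicate 3 was the lowest library for each transcript. Reads on Y105E8B.1b.1 as a percentage of those on Y105E8B.1a were 25.5%, 34.4% and 28.2% in control and 29.6%, 33.6% and 42.9% with *unc-62* RNAi, which overlap (29.4 ± 4.60 against 35.4 ± 6.81, SD, n = 3 each).

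**Figure D3:**
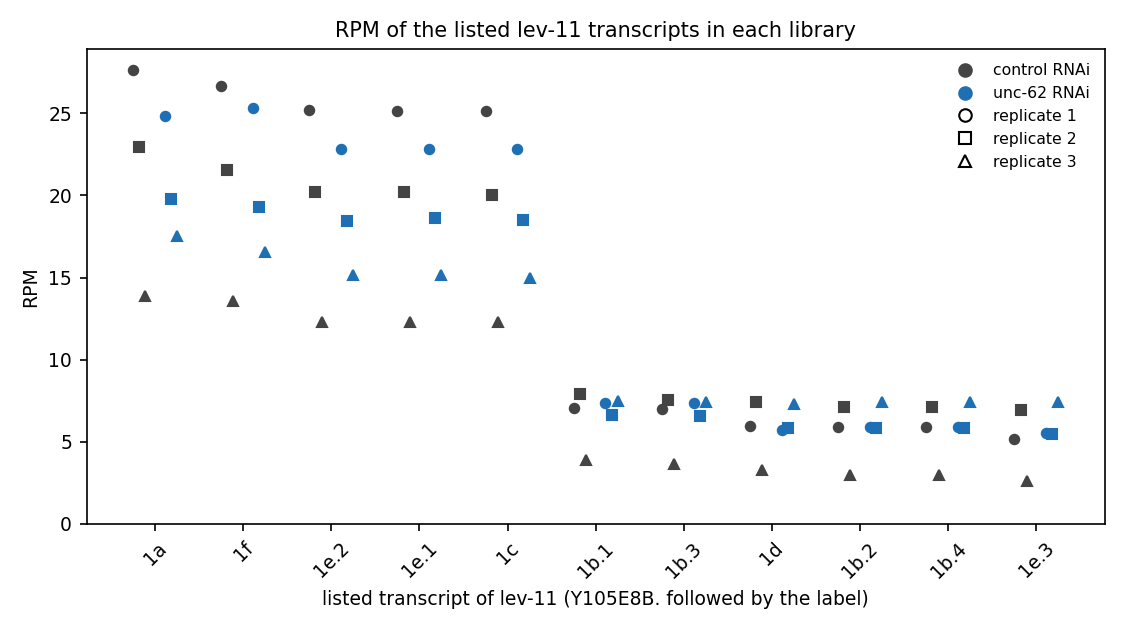
RPM of the 11 listed *lev-11* transcripts in the 6 libraries, ordered by mean level in control; colours are treatments and symbols replicate numbers. The 5 transcripts on the left lie between 12.3 and 27.7 RPM and the 6 on the right between 2.61 and 7.89 RPM, and in both sets the treatments interleave.

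The 10 genes together took between 0.0376% and 0.0915% of the uniquely mapped reads in control and between 0.0445% and 0.0620% with *unc-62* RNAi. Control replicate 2 held the highest share and control replicate 3 the lowest, with all 3 *unc-62* RNAi libraries between them. Taken replicate by replicate, the median fold change of the 10 genes was -0.21, -0.59 and -0.31, where all tested genes had medians of 0.02, -0.07 and -0.05. Each replicate thus gave a median below that of all genes, the lowest in replicate 2.

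Replicate 2 was the highest of both treatments in RPM for *tni-1*, *unc-27*, *tni-3* and *mup-2*. After scaling between libraries this held for 5 genes, *tni-4* being the fifth by a small margin, against 14% of all tested genes. *unc-27* and *mup-2*, a troponin I and a troponin T of body wall muscle, moved together over the libraries, with between 9.22 and 12.4 reads of *unc-27* per read of *mup-2* in all 6 while RPM of each differed up to 3.19-fold and 2.66-fold among the control libraries. *pat-10*, their partner in the complex, did not keep such a ratio, with 0.413 to 1.17 reads of *unc-27* per read of *pat-10*. Points in such ratios share a library and its depth, and they are given as descriptions.

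**Figure D4:**
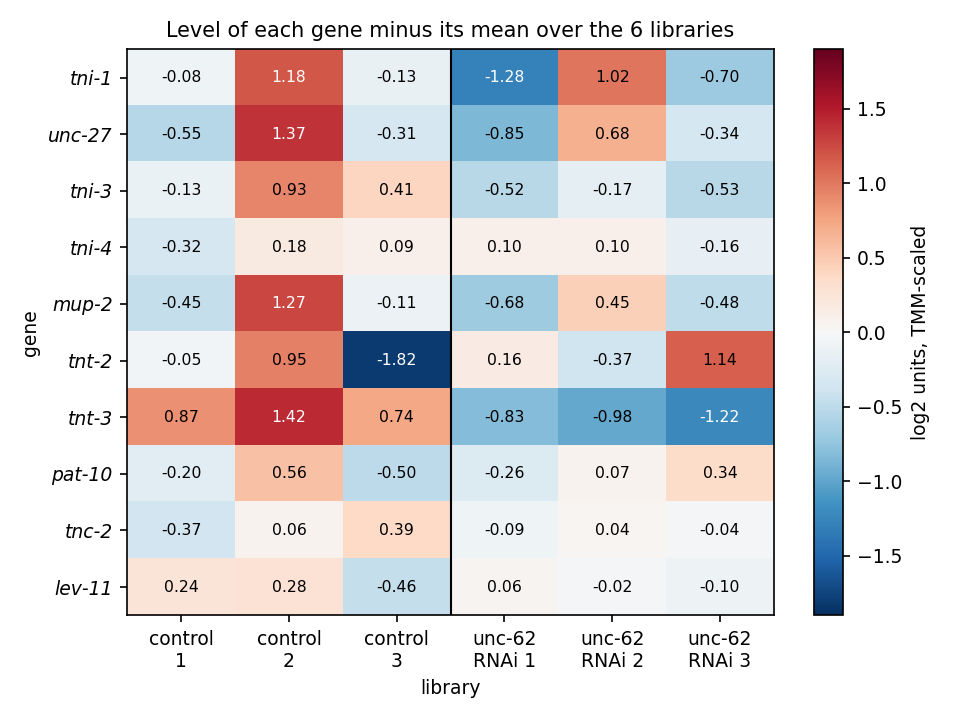
Scaled log2 level of each gene in each library minus its mean over the 6 libraries. Red cells are above and blue cells below the gene's own mean, in log2 units. *tnt-3* is above its mean in the 3 control libraries (0.74 to 1.42) and below it in the 3 *unc-62* RNAi libraries (-1.22 to -0.83), *unc-27* and *mup-2* are above theirs in replicate 2 of both treatments, and *tnt-2* runs from -1.82 in control replicate 3 to 1.14 in *unc-62* RNAi replicate 3.

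By position, 5 of the 10 genes are on the X chromosome (*tni-1*, *unc-27*, *mup-2*, *tnt-2* and *tnt-3*), which holds 8.84% of the tested genes with a known chromosome. The 643 tested genes on the X chromosome had a median log2 fold change of 0.05, close to the 0.03 of all tested genes. In the annotation of WBcel235 (Ensembl release 115) *tnt-3* has 11 coding transcripts of 279 to 1235 codons, while *mup-2* has 1 of 405 codons and *tnt-2* 1 of 428. The troponin I genes span 194 codons in *tni-4* to 260 in *tni-3*, and the troponin C genes have 160 in *tnc-2* and 161 in *pat-10*. *lev-11* has 20 coding transcripts of 151 to 284 codons. No gene of the 10 overlaps another on its strand in that annotation except *tni-4*, which overlaps the small RNA gene 21ur-8163.

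Among all tested genes, the 5 whose profile over the 6 libraries was nearest to the mean profile of the 10 were *clik-1*, *ani-1*, *cct-4*, B0238.15 and *pir-2*, with root mean square differences of 0.0615, 0.0807, 0.0826, 0.104 and 0.110 in log2 units. *clik-1* encodes a calponin-like protein that binds actin in muscle, *ani-1* an anillin and *cct-4* a chaperonin subunit. *clik-1* had 51.6, 89.5 and 43.6 RPM in control and 44.4, 54.4 and 43.6 RPM with *unc-62* RNAi, highest in replicate 2 of both treatments. This likeness is over 6 libraries and to a mean that smooths the differences between the 10 genes.

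The other genes of the thin filament, 17 by list and 15 tested, include the actins, the actin-binding proteins and *tnt-4*. Of the 15, limma called 0 in either direction and 2 had an unadjusted p under 0.05 (of all tested genes 8.73% were lower and 4.69% higher). edgeR called 0 and DESeq2 called *tnt-4* lower (2.62% of all tested genes). The median log2 fold change of the 15 was -0.17, close to the -0.20 of the troponin and tropomyosin genes, and 12 were below 0. The extremes were *tnt-4* at -1.51 and *unc-78*, an actin-disassembly factor, at 0.60 (adjusted p = 0.466, limma). *unc-78* had enough reads to be tested only through *unc-62* RNAi, the treatment where its mean was higher. Its place as the highest of the list thus depends in part on how genes were admitted. Without replicate 3, where limma called 9.35% of all tested genes lower, 3 of the 15 were, *cas-2*, *clik-1* and *tnt-4*.

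The thick filament genes, 11 of 13 tested, had a median of -0.86, and 10 of the 11 were below 0. Of these, limma called 1 lower and 0 higher, where it called 0.818% of all tested genes lower. An unadjusted p under 0.05 was reached by 8, all of them below 0, where 8.73% of all tested genes were lower at that level. edgeR called *myo-2* and DESeq2 called *myo-2* and *unc-89*, where they called 0.859% and 2.62% of all tested genes lower. The called gene was *myo-2*, a myosin heavy chain of the pharynx, with 1.25, 2.63 and 0.699 RPM in control and 0.350, 0.350 and 0.108 RPM with *unc-62* RNAi (log2 fold change -2.27, SE 0.343, adjusted p = 0.0957, limma with Benjamini-Hochberg adjustment). Each *unc-62* RNAi library had fewer than 10 reads of *myo-2*, so this gene passed the filter only through control. *unc-89* and *ttn-1*, also among the 8, did not reach 10 reads in all 3 *unc-62* RNAi libraries, so they too passed only through control. The counts and the median of this list thus include genes admitted by the treatment where they are high. The highest was *unc-45*, a myosin chaperone, at 0.11. After scaling between libraries, replicate 2 was the highest of both treatments in 8 of the 11, against 14% of all tested genes. Without replicate 3 limma called 7 of the 11 lower, at the setting where it called 9.35% of all tested genes lower.

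The genes that supply or bind calcium in muscle, 9 of 14 tested, had a median of -0.47, with 8 below 0. Of the 9, limma, edgeR and DESeq2 called 0, while 4 had an unadjusted p under 0.05 by limma (of all tested genes 8.73% were lower and 4.69% higher). *csq-1*, among these 4, and *ccb-1* passed the filter only through control, the treatment where their means were higher. The counts and the median of this list thus include genes admitted by that treatment. Without replicate 3 limma called 3 lower, *cmd-1*, *mca-1* and *unc-68* (9.35% of all tested genes). The extremes were *unc-68*, the ryanodine receptor, with 4.54, 4.85 and 4.01 RPM against 3.04, 2.89 and 1.30 RPM (adjusted p = 0.207, limma), and *crt-1*, calreticulin, at a log2 fold change of 0.17 (adjusted p = 0.682, limma). The order of the list medians, from -0.86 for the thick filament to -0.17 for the rest of the thin filament, was not tested.

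**Figure D5:**
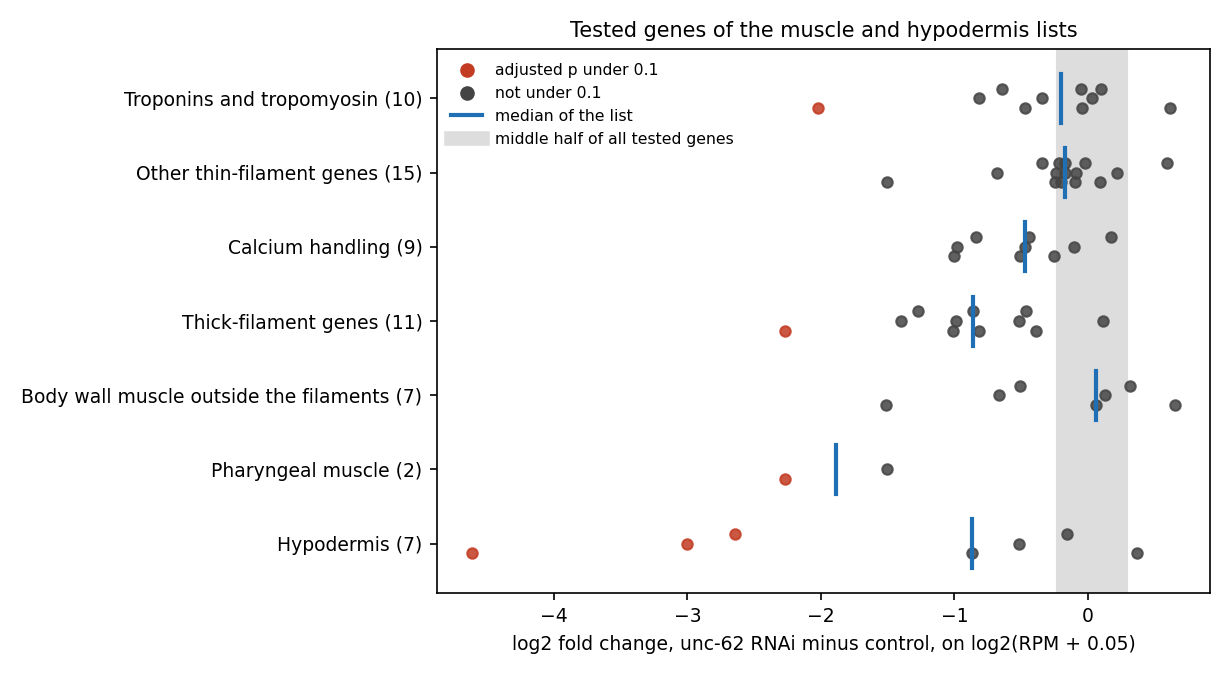
Log2 fold change of each tested gene of the muscle and hypodermis lists, with the number tested in brackets; red points are genes at an adjusted p under 0.1 by limma, blue bars the list medians and the grey band the range between the quartiles of all tested genes (-0.23 to 0.30). The median of the troponin and tropomyosin genes (-0.20) lies inside the band and that of the thick filament genes (-0.86) below it; *myo-2* and *tnt-4* appear in 2 lists each.

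Markers of the tissues that a whole worm holds moved as follows. Body wall muscle genes outside the filaments, 7 of 14 tested, had a median of 0.06, and limma called 0 of them. An unadjusted p under 0.05 was reached by 2 (of all tested genes 8.73% were lower and 4.69% higher). edgeR called 0 and DESeq2 called *dim-1* lower (2.62% of all tested genes). This list ran from *dim-1*, an immunoglobulin-domain protein of the muscle attachments, at -1.51 to *pat-2*, an integrin subunit, at 0.65. Its summed level was 13.1 to 18.6 RPM in control and 7.46 to 16.3 RPM with *unc-62* RNAi. *hlh-1*, the transcription factor of this muscle, had 0.512 to 0.724 RPM in control and 0.437 to 0.919 RPM with *unc-62* RNAi. The summed pharyngeal muscle genes were at 5.17 to 12.5 RPM in control and 2.22 to 3.28 RPM with *unc-62* RNAi, without overlap, with both tested genes, *myo-2* and *tnt-4*, below 0. *tnt-4* alone made up most of this sum in every library. Of that list, *ceh-22* was at 0 in all libraries. Their part in the result for *tnt-3* was not tested, and the pharyngeal *tni-4* and *tnc-2* had fold changes of 0.03 and -0.05.

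The hypodermis, where the cuticle is made, had the most calls of these lists. Limma called 3 of its 7 tested genes lower, where it called 0.818% of all tested genes lower. These were the cuticle collagen genes *rol-6*, *col-12* and *dpy-5*, with log2 fold changes from -2.64 in *rol-6* to -4.61 in *dpy-5*. None of them had enough reads in all 3 *unc-62* RNAi libraries, so they passed the filter only through control. The highest of the list was *lin-26*, a transcription factor of epithelial cells, at 0.37 (adjusted p = 0.761, limma), and the antimicrobial peptide gene *nlp-29* was at -0.16. The list had a median of -0.87 and a summed level of 508 to 879 RPM in control and 328 to 550 RPM with *unc-62* RNAi. Intestinal markers, 9 tested, had a median of 0.23 and a summed level of 3887 to 4901 against 5618 to 6054 RPM. *mtl-2*, a metallothionein gene with 3507 to 4368 RPM in control and 5292 to 5526 RPM with *unc-62* RNAi, made up most of it, and without this gene the sums overlapped, at 380.0 to 533.1 RPM in control against 298.0 to 528.1 RPM. Intestinal log2 fold changes ran from *cpr-6*, a cathepsin B gene, at -0.43 to *ges-1*, a gut esterase, at 1.05 (adjusted p = 0.324, limma). *ges-1*, *ifb-2* and *pept-1* passed the filter only through *unc-62* RNAi, the treatment where their means were higher. The median and the counts of the intestinal list thus include genes admitted by that treatment. Of the 9, limma, edgeR and DESeq2 called 0, and 2 had an unadjusted p under 0.05 by limma (of all tested genes 8.73% were lower and 4.69% higher). With a pseudocount of 1 RPM limma called 0 genes in any list described here, and 22 of all tested genes. Without replicate 1 or 2 it called 0 of all tested genes, so those settings cannot tell the lists apart from other genes. The part of these tissues in the levels of the troponin genes was not tested.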

How the data were processed

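Per the labels and the study's methods, poly-A RNA was enriched for 3′ ends and sequenced as reads of 36 bases. The authors mapped them with Bowtie 0.12.7 to WS215 (the processing notes also name CASAVA 1.7.0), allowed 2 mismatches, discarded all but unique sense-strand matches, and deposited a signal, RPM, per transcript. Reads shared by similar genes were left out, which may lower the level of paralogs. Of 153186 values, 100.0% were whole reads within 0.01 after division by the value of 1 read. The transcript with the highest mean stood for each gene. Names came from RefSeq for WBcel235 (7273 of 7333 tested genes), whose coordinates were not used.

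limma 3.58.1 (R 4.3.3) was fitted to log2(RPM + 0.05) with TMM scaling, a variance trend and the replicate number as a block, since the study divided each batch between the treatments and took fold changes within replicates. p-values were adjusted by Benjamini-Hochberg over 7333 genes at 0.1. Fold changes on this scale understate changes of low genes. edgeR 4.0.16 and DESeq2 1.42.0 on recovered reads were alternatives. p-values rest on 3 batches per treatment. The models were also run on simulated data in which all libraries had equal noise, unlike replicate 3 here, and no statement rests on that run. Python 3.11.15 was used for summaries. The 10 genes are named by function, but they, the lists and the tests were chosen with earlier results of these data known. Genes named are the 10, *tnt-4*, the extremes of each list and the nearest profiles. *unc-15*, *unc-54*, *unc-89*, *ttn-1*, *mtl-2*, *ifb-2*, *pept-1*, *nlp-29*, *ceh-22*, *cas-2*, *cmd-1*, *mca-1*, *csq-1*, *ccb-1*, *hlh-1*, *rol-6*, *col-12*, *unc-62*, *vit-2* and the genes of the further profiles were added after their values were seen.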

Additional observations from a re-analysis of the deposited data

How the results depend on the processing

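Limma called 96 genes. The count was 255 with no filter on low values (15707 genes), 38 with 10 reads required in all 6 libraries (6496 genes), 22 with a pseudocount of 1 RPM and 294 with DESeq2. Leaving out 1 replicate number gave 0 to 1097 calls, the most without replicate 3. It was 0 without replicate 1 and without replicate 2, in which limma gave 518 and 580 genes with p under 0.05 before adjustment. Of the 10 genes, 0 were called with a pseudocount of 1 RPM, where *tnt-3* was at -1.78 (adjusted p = 0.101, limma), and 0 to 3 when a replicate was left out. The 3 without replicate 3 were *tnt-3*, *tni-3* and *unc-27*. With a replicate left out, limma has few residual degrees of freedom, which limits what a lost call says.

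Leaving out 1 replicate moved the median of the 10 genes between -0.49 (without replicate 3) and -0.12. Log2 fold changes then ranged from -2.17 to -1.83 for *tnt-3*, -1.01 to -0.67 for *tni-3*, -0.47 to -0.17 for *unc-27*, -0.88 to -0.35 for *tni-1*, -0.58 to -0.30 for *mup-2*, -0.15 to 0.19 for *tni-4*, -0.53 to 1.58 for *tnt-2*, -0.25 to 0.39 for *pat-10*, -0.21 to 0.16 for *tnc-2* and -0.22 to 0.08 for *lev-11*. The sign turned for *tni-4* without replicate 1 (-0.15), for *tnt-2* (-0.53), *pat-10* (-0.25) and *tnc-2* (0.16) without replicate 3, and for *lev-11* without replicate 1 (0.04) or without replicate 2 (0.084). The cause was not tested.

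Deviations from the group means correlated at 0.42, 0.20 and -0.18 between libraries with the same number, so the values do not show that equal numbers share a batch. With no replicate block 132 genes were called and *tnt-3* had an adjusted p of 0.0271. TMM on all uniquely mapped reads, added after seeing the data, gave 126 calls and an adjusted p of 0.0433 for *tnt-3*. Over the alternatives that kept all libraries, no fold change of the 10 genes turned its sign, and only that of *tnt-3* with a pseudocount of 1 RPM left its side of the threshold. The SE of the 10 genes was widest in *tnt-2* (0.819) and *pat-10* (0.296).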

Other observations

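The profile of *tnt-3* over the 6 libraries was nearest to those of *sams-1* (root mean square difference 0.202 log2 units), which encodes S-adenosylmethionine synthetase, *pugs-11* (0.280), F56C9.10 (0.303), *vit-2* (0.309) and Y47G6A.29 (0.371). *sams-1* had 49.2, 55.3 and 38.4 RPM in control and 14.7, 12.5 and 6.49 RPM with *unc-62* RNAi (log2 fold change -2.18, adjusted p = 0.0681, limma with Benjamini-Hochberg adjustment). None of these is a muscle filament gene by the lists used here.

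The profile of *unc-27* was nearest to those of *otub-4* (0.158), *rbm-28* (0.160) and *mup-2* (0.166), the last being the only other troponin or tropomyosin gene among its nearest 5. That of *tnt-2* was nearest to W08D2.9 (0.201), F08D12.7 (0.234) and *arf-6* (0.237), a small GTPase gene. In replicate 3 the log2 fold change of 256 tested genes (3.49%) was at or above that of *tnt-2*, and the SD of fold changes over all tested genes was 1.23 in replicate 3 against 0.66 in replicate 1 and 0.70 in replicate 2.

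Replicate 2 stood above the others in thick filament genes too. *unc-15*, paramyosin, had 5.004, 43.2 and 2.28 RPM in control and 3.15, 15.4 and 1.30 RPM with *unc-62* RNAi. *unc-89*, a giant protein of the M-line, had 1.38, 9.94 and 0.466 RPM against 0.350, 3.28 and 0.270 RPM. *unc-54*, the main body wall myosin heavy chain, had 18.6, 25.8 and 13.5 RPM against 14.1, 11.9 and 7.46 RPM, so replicate 2 was the highest only in control.

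Of the remaining marker lists, neurons (4 tested) had a median log2 fold change of 0.03, gonad sheath (2 tested) -0.40 and sperm (2 tested) -1.33. The extremes were *egl-3* (-0.67) and *flp-1* (1.01) among the neuronal genes, *inx-9* (-0.52) and *inx-8* (-0.28) in the gonad sheath and *msp-3* (-1.36) and *msp-142* (-1.29) in sperm. *flp-1* passed the filter only through *unc-62* RNAi and *inx-9* only through control, each the treatment where its mean was higher. Limma called 0 in each list, with 1 (*flp-1*), 0 and 2 at an unadjusted p under 0.05 (of all tested genes 8.73% were lower and 4.69% higher). edgeR called 0 in each and DESeq2 called both sperm genes, *msp-3* and *msp-142*, lower (2.62% of all tested genes).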
